A study of Mus musculus with 26 samples.

Results

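Transcripts of the immunoglobulin E heavy chain (IgE, constant gene IGHE) were followed through heavy-chain B cell receptor repertoires of skin, spleen and lymph node. All deposited sequences assigned to IGHE were taken. They made up 2873 clonotypes of 1674869 and 5237 copies of 4007742, where a clonotype is a V gene, a J gene and a junction nucleotide sequence within 1 replicate, and copies are the deposited whole-number counts. IgE held 209 clonotypes with 1419 copies in spleen, 46 clonotypes with 993 copies in lymph node, 2618 clonotypes with 2825 copies in the positive control, and 0 in skin. Each tissue was represented by 4 biological replicates with 2 technical libraries each, and the positive control by 2 technical libraries. All tissue libraries came from wild-type (WT) mice labelled "S. epidermidies association", that is, association with a skin commensal bacterium, and no tissue group lacked that treatment. The positive control is labelled as WT B cells with no treatment. The titles were used for the tissue, since the tissue field reads ear skin in libraries titled spleen or lymph node as well. The labels do not give strain, age or sex, what the positive control is beyond WT B cells, or whether a replicate is 1 animal. The p-values therefore measure only the spread between these replicates, which may be technical. In bulk RNA, fewer IgE cells and less IgE RNA per cell cannot be told apart.

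IgE is the heavy-chain class bound by the high-affinity receptor of mast cells and basophils, and is known for its part in allergy and in defence against parasites. A B cell first makes IgM and IgD, and replaces that constant region by class switch recombination, which joins the rearranged V, D and J segments to a constant gene further along the locus. Switching to IgE can go directly or by way of IgG1, and V segments gather point mutations in germinal centres. In the mouse locus (GRCm38), Ighe lies at chr12:113269263-113273248, between Ighg2c at chr12:113287389-113288932 and Igha at chr12:113256204-113260236. Ighg1 lies at chr12:113326541-113330523 and Ighm at chr12:113418826-113422730.

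Total copies ranged between 2215 and 4183 in skin libraries, 79235 and 683759 in spleen libraries, 44772 and 117512 in lymph node libraries, and 318201 and 327365 in the positive control. A distinct sequence carried more than 1 constant gene within a library in 80 of 1608524 cases in spleen and lymph node, and in 203 of 483771 in the positive control. Between the technical libraries of 1 replicate, the constant gene of an identical sequence could differ.

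Of 43 identical sequences found in both libraries of a spleen or lymph node replicate with IgE in at least 1 of them, 18 carried IgE in both (41.9%, exact 95% Clopper-Pearson interval 27.0 to 57.9%). With 5 or more copies in each library, 10 of 19 did. Without that copy limit, the share was 84.6% for IgM, 70.6% for IgG1, 73.1% for IgG2, 86.3% for IgA, 50.6% for IgG3 and 12.0% for IgD. It was lower for IgE than for any other isotype but IgD, with no test made between isotypes. With 5 or more copies in each library, it was 52.6% for IgE and 50.3% for IgG3. In spleen, the other library gave IgA for 7 of 33 sequences, IgM for 7, IgG1 for 4, IgG3 for 2 and IgG2 for 1. In lymph node it gave IgG1 for 2 of 10 sequences and IgM for 2. In the positive control 8 of 141 sequences kept IgE (5.67%, exact interval 2.48 to 10.9%), and the other library gave IgM for 74 of them.

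The 25 tissue sequences whose constant gene differed between libraries held 924 of 2412 tissue IgE copies (38.3%). They held 622 of 778 IgE copies in lymph node replicate 4, 221 of 1209 in spleen replicate 1, 56 of 116 in spleen replicate 2 and 24 of 91 in spleen replicate 4. In lymph node replicate 2 they held 1 of 180 copies, and none in the other replicates. For spleen and lymph node, values are therefore given with and without these sequences where they move a result. Their part in the values was otherwise not tested.

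**Figure D1:**
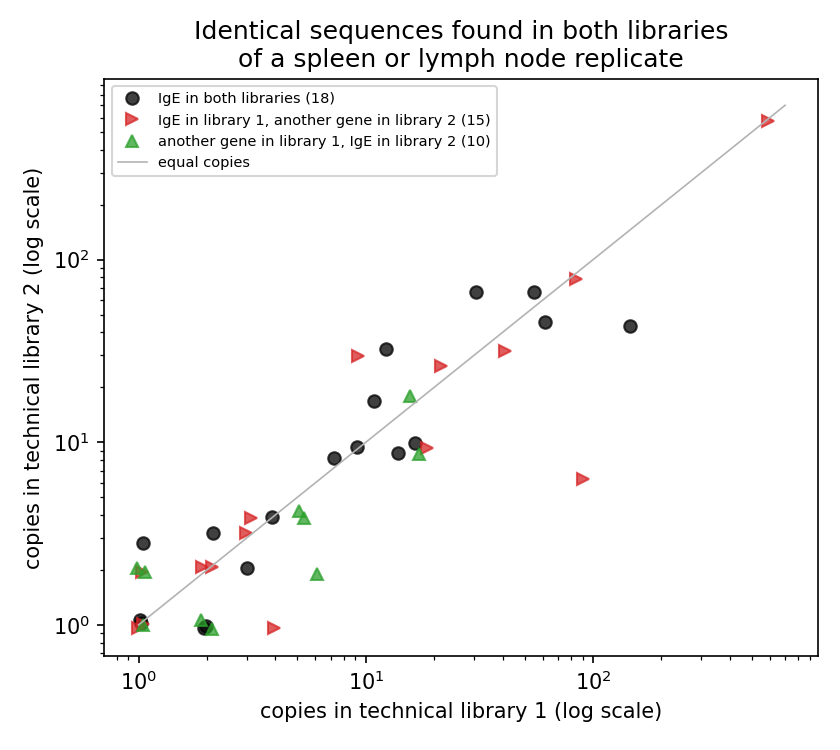
Each point is 1 identical sequence found in both technical libraries of a spleen or lymph node replicate with IgE in at least 1 library, with its copies in library 1 (x axis) and library 2 (y axis), both on log scales and shifted slightly at random so that points do not hide each other. Black circles carried IgE in both libraries (18), red triangles IgE in library 1 only (15) and green triangles IgE in library 2 only (10), and the grey line marks equal copies. The red point at the top right is the sequence with 603 copies as IgE in library 1 and 601 as IgG1 in library 2.

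The clonotypes listed next are shown because they are the most abundant IgE clonotypes seen as IgE in both technical libraries: the largest of each replicate and any other among the 3 largest of its tissue, where that held. The junctions are given 5′ to 3′ from the deposited tables. Capitals mark the CDR3, the most variable loop of the antibody, and lower case the conserved codons at its ends.
Spleen replicate 1, IGHV1-5 with IGHJ2: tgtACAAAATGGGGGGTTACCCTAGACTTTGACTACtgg
Spleen replicate 1, IGHV14-3 with IGHJ3: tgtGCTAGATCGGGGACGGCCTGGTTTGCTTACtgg
Spleen replicate 1, IGHV9-4 with IGHJ1: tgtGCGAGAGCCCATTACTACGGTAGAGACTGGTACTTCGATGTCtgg
Spleen replicate 2, IGHV1-76 with IGHJ1: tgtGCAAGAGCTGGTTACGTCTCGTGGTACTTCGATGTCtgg
Spleen replicate 4, IGHV1-26 with IGHJ3: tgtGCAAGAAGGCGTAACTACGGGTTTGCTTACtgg
Lymph node replicate 1, IGHV1-19 with IGHJ1: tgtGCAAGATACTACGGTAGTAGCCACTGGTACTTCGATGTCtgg
Lymph node replicate 2, IGHV14-4 with IGHJ3: tgtACTCCGAGAGCCTGGTTTGCTTACtgg
Lymph node replicate 4, IGHV1-39 with IGHJ3: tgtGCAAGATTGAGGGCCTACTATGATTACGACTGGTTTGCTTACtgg
Lymph node replicate 4, IGHV5-4 with IGHJ3: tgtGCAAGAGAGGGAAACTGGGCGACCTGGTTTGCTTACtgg

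The IGHV1-5 clonotype of spleen replicate 1 had 146 IgE copies in library 1 and 42 in library 2, and no other isotype in either. The IGHV14-3 clonotype of the same replicate had 105 and 22 IgE copies beside 3 and 12 IgA copies. Averaged over its 6 distinct IgE sequences, 3.94% of aligned V nucleotides mismatched, the highest of the set. Its largest IgE sequence, with 94 of the 127 IgE copies, had 0 V mismatches. That sequence carried IgE in library 1 and IgA, with 6 copies, in library 2. The IGHV9-4 clonotype had 34 and 66 IgE copies, and 1 IgG1 copy in library 2.

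The IGHV1-76 clonotype of spleen replicate 2 shows the library difference within a named clonotype, with 41 IgE and 6 IgG3 copies in library 1 against 3 IgE and 37 IgG3 copies in library 2. The IGHV1-26 clonotype of spleen replicate 4 had 12 IgE copies in each library and no other isotype.

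In lymph node replicate 2, the IGHV14-4 clonotype had 63 and 72 IgE copies, no other isotype, and 14 distinct IgE sequences, the most of any clonotype named here. The IGHV1-39 clonotype of lymph node replicate 4 had 66 and 52 IgE copies beside 7 and 6 IgG1 copies and 1 and 3 IgM copies, so that each of these isotypes was found in both libraries. The IGHV5-4 clonotype of that replicate had 14 and 10 IgE copies, and the IGHV1-19 clonotype of lymph node replicate 1 had 10 and 2, with no other isotype in either clonotype.

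The largest positive control clonotype seen as IgE in both libraries used IGHV3-2 with IGHJ3 and had 1 and 4 IgE copies, and the next used IGHV5-9 with IGHJ3 and IGHV1-4 with IGHJ4, with 4 and 3 IgE copies in all.

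A further 4 clonotypes with 10 or more copies of an identical sequence in each library, but different constant genes, were chosen after their values were seen. They are shown because their constant gene changed between libraries at nearly equal copies, and they held 77.5, 7.20, 1.82 and 20.9% of the IgE copies of their replicates in the order listed.
Lymph node replicate 4, IGHV5-16 with IGHJ1: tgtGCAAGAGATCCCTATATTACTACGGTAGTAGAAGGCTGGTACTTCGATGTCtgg
Spleen replicate 1, IGHV1-18 with IGHJ1: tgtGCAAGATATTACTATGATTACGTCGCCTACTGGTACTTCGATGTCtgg
Spleen replicate 1, IGHV9-3 with IGHJ2: tgtGCAAGAGATGATTACCACTACtgg
Spleen replicate 4, IGHV1-55 with IGHJ1: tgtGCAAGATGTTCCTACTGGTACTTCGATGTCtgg
The IGHV5-16 clonotype had 603 IgE copies in library 1 and 601 IgG1 copies in library 2, all of 1 sequence with 0 V mismatches. The IGHV1-18 clonotype had 82 IgE copies in library 1, and 5 IgE and 81 IgG2 copies in library 2. The IGHV9-3 clonotype had 22 IgE copies in library 1 and 27 IgG1 copies in library 2. The IGHV1-55 clonotype had 1 IgE and 19 IgG1 copies in library 1, and 18 IgE and 2 IgG1 copies in library 2.

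IgE was a rare isotype in every tissue replicate, and its share varied far more between replicates of 1 tissue than between tissues. In skin, 0 of 5356, 7495, 4976 and 5635 copies were IgE, which allows shares of up to 0.0560, 0.0400, 0.0603 and 0.0532% (3 copies over the total, counting error only). In spleen, IgE made up 0.746, 0.00852, 0.000656 and 0.0131% of copies in replicates 1 to 4, from 1209, 116, 3 and 91 IgE copies. In lymph node it made up 0.0354, 0.0789, 0.00162 and 0.357%, from 33, 180, 2 and 778 IgE copies. The 2 tissues overlapped over nearly their whole ranges, with the highest and the lowest replicate both in spleen. The positive control had 0.438% (exact 95% interval 0.422 to 0.454%).

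Spleen replicate 1 lay far above the other 3 spleens, with an exact 95% interval of 0.704 to 0.789%. Spleen replicate 3 rested on 3 copies (0.000135 to 0.00192%) and lymph node replicate 3 on 2 copies (0.000196 to 0.00586%), so that neither differs from the other beyond counting error. The exact intervals of spleen replicates 2 and 4 did not overlap, at 0.00704 to 0.0102% and 0.0105 to 0.0161%, nor did those of lymph node replicates 1 and 2, at 0.0244 to 0.0497% and 0.0678 to 0.0913%. Copies of 1 clonotype may not be independent molecules, so the true uncertainty may be wider.

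The technical libraries of a replicate differed as well. In spleen replicate 1, library 1 gave 0.924% and library 2 gave 0.559%. In lymph node replicate 4 the libraries gave 0.635 and 0.0667%, a gap that is mostly the IGHV5-16 sequence above. Without the sequences whose constant gene differed between libraries, the share was 0.609% in spleen replicate 1, 0.00440% in spleen replicate 2, 0.00964% in spleen replicate 4 and 0.0716% in lymph node replicate 4.

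**Figure D2:**
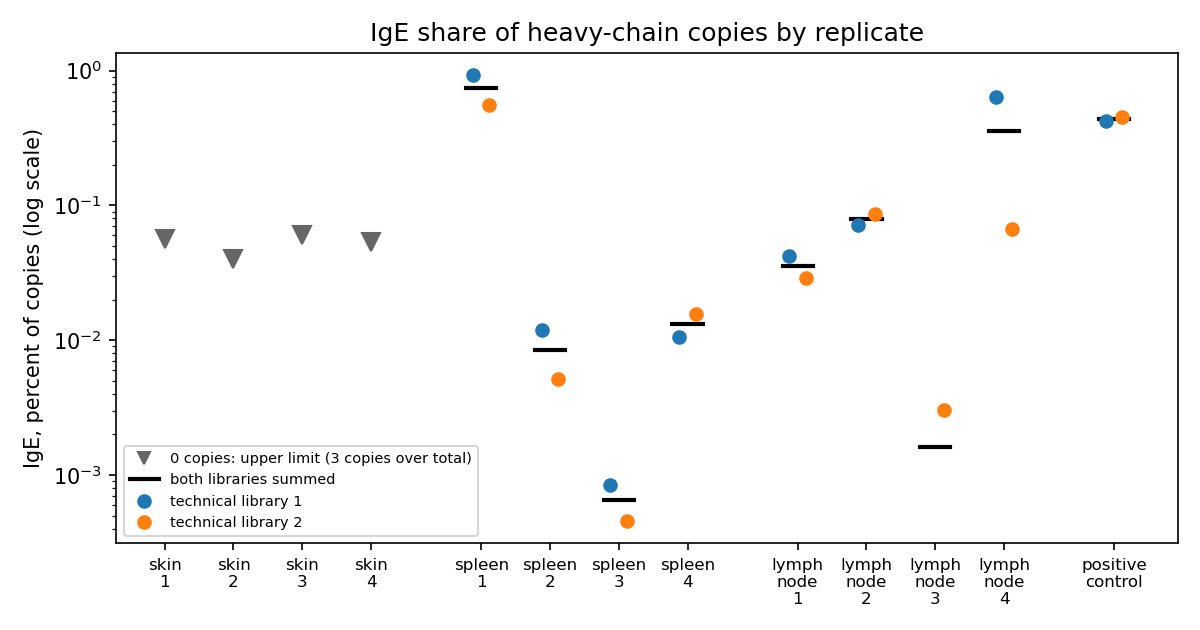
IgE as a percent of heavy-chain copies (y axis, log scale) in each biological replicate (x axis). Black lines give both technical libraries together, blue and orange points library 1 and library 2 (a library with 0 IgE copies, as library 1 of lymph node replicate 3, has no point), and grey triangles the upper limit that 0 copies allows in skin. Spleen runs between 0.000656 and 0.746% and lymph node between 0.00162 and 0.357%, on either side of the skin limits.

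The mean share of copies was 0.192 ± 0.369% for spleen and 0.118 ± 0.162% for lymph node (SD, n = 4 per tissue), a difference of 0.0737 percentage points that did not pass an exact two-sided permutation test (p = 0.943, adjusted p = 0.943 over 3 comparisons, where 4 against 4 can reach 0.0286). Without spleen replicate 1 the difference was -0.111, and on the log10 scale it was -0.368. The share of clonotypes was 0.577, 0.00888, 0.00134 and 0.00624% in spleen, against 0.0400, 0.0170, 0.00192 and 0.0146% in lymph node. That difference of 0.130 percentage points also did not pass (p = 0.943 by the exact permutation test, 0.943 after adjustment), and without spleen replicate 1 it was -0.0129.

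Skin was too shallow for the comparison. Over all 23462 skin copies, 0 IgE copies allow a share of up to 0.0128%. At the mean share of spleen 45.0 copies would be expected in that total and at the mean share of lymph node 27.7, but at the medians only 2.54 and 13.4. The highest limit of a skin replicate, 0.0603%, was exceeded by 1 of 4 spleens and 2 of 4 lymph nodes. An IgE share like that of most spleens was not detectable in a skin replicate at this depth. These limits and expected counts take copies as independent. Skin replicates held only 275 to 350 clonotypes, with 34.5 to 55.8 copies per IgA clonotype. The limits may therefore be too low and the expected copies may stand for few clonotypes.

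Among the 7 isotypes, IgE ranked last by copies in the positive control and in all tissue replicates with IgE except spleen replicate 1 and lymph node replicate 4, where it ranked 6. The isotype whose share went most nearly with that of IgE over the 8 spleen and lymph node replicates was IgG1 (Pearson r of log10 shares 0.876, Spearman rho 0.810). IgG2 came next, with r = 0.493 and rho = 0.548. Without the 2 replicates farthest from the median of the other isotype, r was 0.826 for IgG1 and 0.0708 for IgG2 (n = 6). These are descriptions, since all isotypes of a replicate share its libraries, their depth and a fixed total. The shares also include the sequences whose constant gene differed between libraries, and their part in r was not tested. In lymph node replicate 4, 1 such sequence gave 603 of 778 IgE copies and 601 of 2310 IgG1 copies. Spleen replicate 1 was also high in IgG1, at 3.41% of copies against 0.214 to 0.230% in the other 3 spleens. Lymph nodes held 0.269 to 1.61% IgG1.

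Tissue IgE was made of few, partly expanded clonotypes. Spleen replicates 1 to 4 held 148, 39, 3 and 19 IgE clonotypes, and lymph node replicates 11, 20, 1 and 14. Their mean size was 8.17, 2.97, 1 and 4.79 copies in spleen and 3, 9, 2 and 55.6 copies in lymph node, against 1.08 copies in the positive control. Without the sequences whose constant gene differed between libraries, the mean size was 13 copies in lymph node replicate 4 and 6.72, 1.82 and 3.94 copies in spleen replicates 1, 2 and 4. Single-copy clonotypes numbered 83 of 148, 25 of 39, 3 of 3 and 10 of 19 in spleen, and 5 of 11, 10 of 20, 0 of 1 and 9 of 14 in lymph node. The positive control had 2482 single-copy clonotypes of 2618 (94.8%), with 78.7 to 96.9% for the other isotypes there. In the tissue replicates, mean IgG2 size was 15.5, 6.27, 7.07 and 6.25 copies in spleen and 12.6, 12.0, 14.5 and 18.1 in lymph node. It was above that of IgE in all but lymph node replicate 4, and above the 13 copies of IgE there without those sequences. Mean IgG1 size was 8.41, 2.62, 2.82 and 2.43 copies in spleen and 7.79, 7.02, 2.79 and 8.19 in lymph node. It was above that of IgE in replicates 1 and 3 of both tissues and below it in replicates 2 and 4. In spleen replicate 2 it was above the 1.82 copies of IgE without those sequences. IgG1 and IgG2 sizes are given with all their sequences.

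The largest clonotype held 15.6, 37.9, 33.3 and 26.4% of IgE copies in the spleens and 36.4, 75, 100 and 77.5% in the lymph nodes, against 0.354% in the positive control. Without the same sequences it held 75.6% in lymph node replicate 4, where the IGHV1-39 clonotype was then the largest, and 19.0, 13.3 and 35.8% in spleen replicates 1, 2 and 4. IgE appeared in both technical libraries for 8, 7, 0 and 6 clonotypes of the spleens and 1, 5, 0 and 2 of the lymph nodes. The positive control had 17 such clonotypes of 2618.

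Many IgE clonotypes of a replicate had similar junctions. Junctions of the same J gene, the same length and at least 85% identity formed 66, 29, 3 and 11 groups in the spleens and 8, 12, 1 and 6 in the lymph nodes. In spleen replicate 1 the group with most clonotypes held 13 of them, with 13 junctions and 80 IgE copies. Its 4 largest junctions, with 36, 26, 7 and 2 IgE copies, are printed to show how members vary, in lower case with capitals where a base differs from the first.
Junction 1, IGHV5-9 with IGHJ1: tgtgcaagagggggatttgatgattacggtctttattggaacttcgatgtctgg
Junction 2, IGHV5-9 with IGHJ1: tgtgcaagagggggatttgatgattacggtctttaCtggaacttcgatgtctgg
Junction 3, IGHV5-9 with IGHJ1: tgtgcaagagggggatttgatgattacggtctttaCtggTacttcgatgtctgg
Junction 4, IGHV5-17 with IGHJ1: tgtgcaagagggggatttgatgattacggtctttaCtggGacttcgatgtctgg
These junctions differ from the first at 1, 2 and 2 of 54 bases, and junction 4 was assigned another V gene of the same family. Whether the members of a group stem from 1 rearrangement was not tested. The same rule formed 1194 groups from the 2618 clonotypes of the positive control, the largest with 107 clonotypes.

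IgE clonotypes carried more V mutations than IgM and fewer than IgG1 and IgA. V mutation is the share of aligned V nucleotides that mismatch the assigned gene, averaged over the distinct sequences of a clonotype and then over clonotypes. The IgE mean was 1.69, 1.62, 0.466 and 1.66% in spleen replicates 1 to 4, against 0.931, 1.13, 0 and 1.21% in lymph node. Both replicates 3, the lowest of each tissue, rest on 3 clonotypes and on 1. The 3 other spleens all lay above the 3 other lymph nodes. The tissue means were 1.36 ± 0.595% for spleen and 0.819 ± 0.559% for lymph node (SD, n = 4 per tissue), and the difference of 0.539 percentage points did not pass (p = 0.257 by the exact permutation test, 0.771 after adjustment). Without single-copy clonotypes it was 1.18 (adjusted p = 0.0857 in an exact permutation test of 3 against 4), and with copies as weights 0.833 (adjusted p = 0.171).

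Within a replicate, IgE was set against the other isotypes in the 6 replicates with at least 5 IgE clonotypes, by an exact two-sided sign-flip permutation test of the mean difference, adjusted over 4 isotypes. The mean over these replicates was 1.37 ± 0.323% for IgE (SD, n = 6), against 0.569 ± 0.102% for IgM, 2.39 ± 0.623% for IgG1, 1.78 ± 0.336% for IgG2 and 2.72 ± 0.486% for IgA. IgE was higher than IgM in 6 of 6 replicates, by 0.804 percentage points (exact p = 0.03125, the smallest that 6 replicates can give; adjusted p = 0.0417). IgE was lower than IgG1 in 6 of 6, with a difference of -1.01, and lower than IgA in 6 of 6, with -1.35 (adjusted p = 0.0417 for each by the same exact test). Against IgG2 the difference was -0.406, with IgE higher in 1 of 6 (adjusted p = 0.0625, exact test).

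The difference from IgM ranged between 0.374 in lymph node replicate 1 and 1.15 in spleen replicate 4. That from IgG1 ranged between -0.618 in lymph node replicate 1 and -1.69 in spleen replicate 1, and that from IgA between -0.818 in lymph node replicate 4 and -1.61 in spleen replicate 4. With copies as weights the differences from IgM, IgG1 and IgA were 0.278, -1.59 and -1.65 (adjusted p = 0.417, 0.0625 and 0.0625, exact test), and with J gene and junction as the clonotype 0.522, -1.25 and -1.54 (adjusted p = 0.125, 0.0625 and 0.0625, exact test). These tests count spleen and lymph node of 1 number as separate replicates. If they came from 1 animal, which the labels do not say, 3 numbers remain and the exact test cannot go below 0.25, the adjusted p that all 4 comparisons then have. Without the sequences whose constant gene differed between libraries, a setting chosen after seeing the data, the difference from IgG2 was -0.298 (adjusted p = 0.03125, exact test). It passed in no other alternative. With copies as weights it was -0.0268, without single-copy clonotypes -0.401, and with J gene and junction as the clonotype -0.415 (adjusted p = 0.875, 0.219 and 0.1875, exact test).

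**Figure D3:**
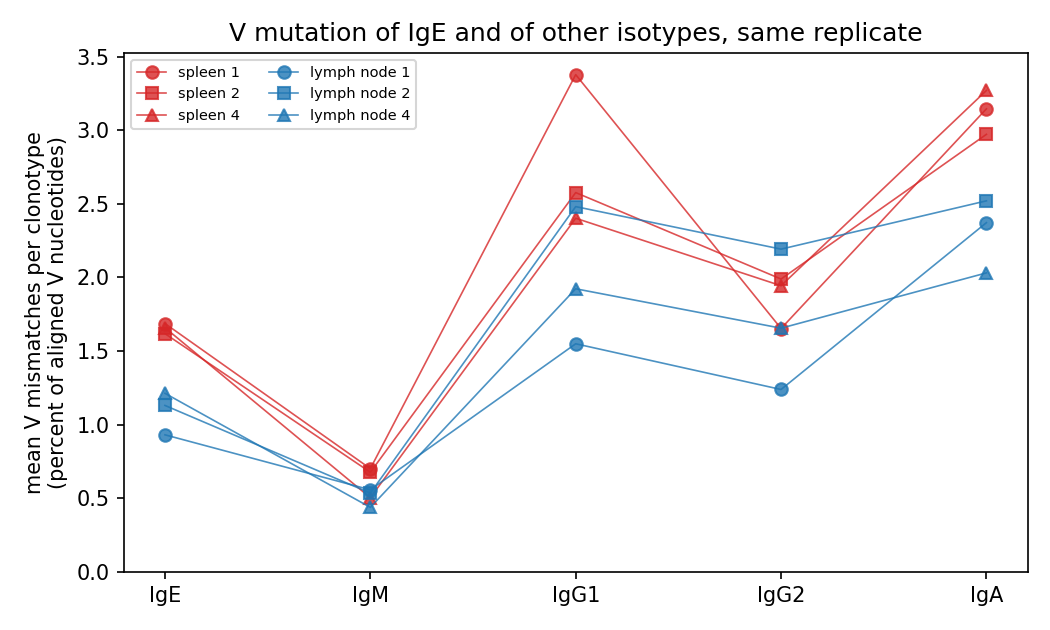
Mean V mismatches per clonotype, in percent of aligned V nucleotides (y axis), for IgE and 4 other isotypes (x axis) in the 6 replicates with at least 5 IgE clonotypes. Lines join the isotypes of 1 replicate, red for spleen and blue for lymph node. Every line falls between IgE and IgM and lies higher at IgG1 and IgA than at IgE.

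A considerable part of the IgE clonotypes was unmutated. In spleen 47 of 148, 16 of 39, 1 of 3 and 6 of 19 clonotypes had no V mismatch, against 6 of 11, 4 of 20, 1 of 1 and 5 of 14 in lymph node. Weighted by copies, the V mutation of IgE was 1.23, 1.10, 0.466 and 1.46% in spleen, against 0.589, 0.295, 0 and 0.0330% in lymph node, so that the most abundant IgE sequences of the lymph nodes were close to the assigned V gene. In lymph node replicate 4 this is the IGHV5-16 sequence with 0 mismatches, which carried IgG1 in the other library, and without such sequences the value there was 0.165%. Low values were not particular to IgE. By copies, lymph node IgM gave 0.365, 0.419, 0.347 and 0.315%, and IgG2 gave 0.233, 1.62, 1.18 and 0.403%. Replacement changes made up 61.0 to 74.3% of IgE mismatches in the spleens with at least 5 IgE clonotypes and 62.5 to 72.5% in such lymph nodes. The mean CDR3 length of IgE was 11.8 codons in spleen and 12.4 in lymph node, beside 11.9 and 12.3 codons for IgM.

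For the positive control the mean V mutation was 1.20% for IgE, 1.07% for IgM, 2.06% for IgG1, 1.50% for IgG2 and 2.08% for IgA, so that IgE lay much nearer to IgM there than in the tissues. With 1 sample, that order has no replicate check. Of 141 IgE sequences found in both control libraries, 8 kept IgE, and the other library gave IgM for 74. The control values include such sequences, and their part in this likeness to IgM was not tested.

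Most IgE clonotypes held no other isotype in their replicate. Whether that is particular to IgE was not tested. Another isotype was held by 49 of 209 in spleen (23.4%, exact 95% interval 17.9 to 29.8%). The counts were 11 of 46 in lymph node (23.9%, 12.6 to 38.8%) and 399 of 2618 in the positive control (15.2%, 13.9 to 16.7%). These intervals take clonotypes as independent, and the similar junctions above may not be. By replicate the counts were 21 of 148, 18 of 39, 1 of 3 and 9 of 19 in spleen and 1 of 11, 4 of 20, 0 of 1 and 6 of 14 in lymph node. Another isotype was found for 23 of 56 clonotypes with 5 or more IgE copies and 14 of 121 with 1 IgE copy in spleen, and for 4 of 9 and 4 of 24 in lymph node, a description with no test.

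In spleen the partner was IgA in 21 of 209 IgE clonotypes, IgM in 13, IgG1 in 12, IgG2 in 10, IgG3 in 5 and IgD in 3. The order differed between spleens: IgA and IgG1 were each found in 7 IgE clonotypes of replicate 1, in 12 and 1 of replicate 2, and in 2 and 4 of replicate 4. Without replicate 2, IgG1 was found in 11 of 170 and IgA in 9. IgA itself made up 31.3 ± 2.83% of spleen copies (SD, n = 4) and 2.34 ± 1.98% of lymph node copies. It was found in 4.73, 30.8 and 10.5% of IgE clonotypes of spleen replicates 1, 2 and 4. Of IgG1 clonotypes there, 5.02, 9.19 and 7.36% held IgA, and of IgG2 clonotypes 2.81, 6.92 and 4.74%. In lymph node, IgM and IgG1 were each found in 6 of 46 IgE clonotypes, IgD in 3, IgG2 and IgG3 in 1 each and IgA in 0. IgM was held by 9.09, 10 and 21.4% of IgE clonotypes in replicates 1, 2 and 4. Beside these stood 5.62, 6.49 and 7.09% of IgG1 and 6.09, 7.31 and 9.23% of IgG2 clonotypes. In the positive control, IgM was the partner in 256 of 2618, IgG2 in 133, IgA in 99 and IgG1 in 20.

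The partner isotype stood in a library that also held IgE for that clonotype in 37 of the 49 spleen cases and 8 of the 11 lymph node cases. For the remaining 12 and 3 clonotypes it stood in the other library alone. For IgG1 the partner stood in the same library in 8 of 12 spleen and 4 of 6 lymph node cases. In the positive control the partner stood in the other library alone for 164 of 399 clonotypes.

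The share of IgE clonotypes that also held IgG1 was 4.73, 2.56 and 21.1% in spleen replicates 1, 2 and 4, against 0, 10 and 28.6% in lymph node replicates 1, 2 and 4. Over these 6 replicates it averaged 11.2 ± 11.3% (SD), against 0.0491 ± 0.0476% of IgM clonotypes, 1.98 ± 0.880% of IgG2 clonotypes and 0.330 ± 0.329% of IgA clonotypes. IgE was higher in 5 of 6 replicates in each comparison, the exception being lymph node replicate 1 with 0 of 11. The differences of 11.1, 9.18 and 10.8 percentage points missed the threshold in the exact two-sided sign-flip permutation test (adjusted p = 0.0625 in each, over 3 isotypes). Without the sequences whose constant gene differed between libraries they were 9.91, 7.98 and 9.63 (adjusted p = 0.0938 in each, exact test), and without single-copy clonotypes 19.9, 15.5 and 19.4 (adjusted p = 0.0938 in each, exact test). Without lymph node replicate 4 the difference from IgG2 was 5.57. In the positive control 20 of 2618 IgE clonotypes held IgG1 (0.764%). IgG3 was left out of these comparisons. Its clonotypes held IgG1 in 6.62, 1.59 and 3.51% in spleen replicates 1, 2 and 4. In lymph node replicates 1, 2 and 4 the share was 0, 2 and 0.676%. It lay above that of IgE in spleen replicate 1, equal to it in lymph node replicate 1, and below it in the others.

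**Figure D4:**
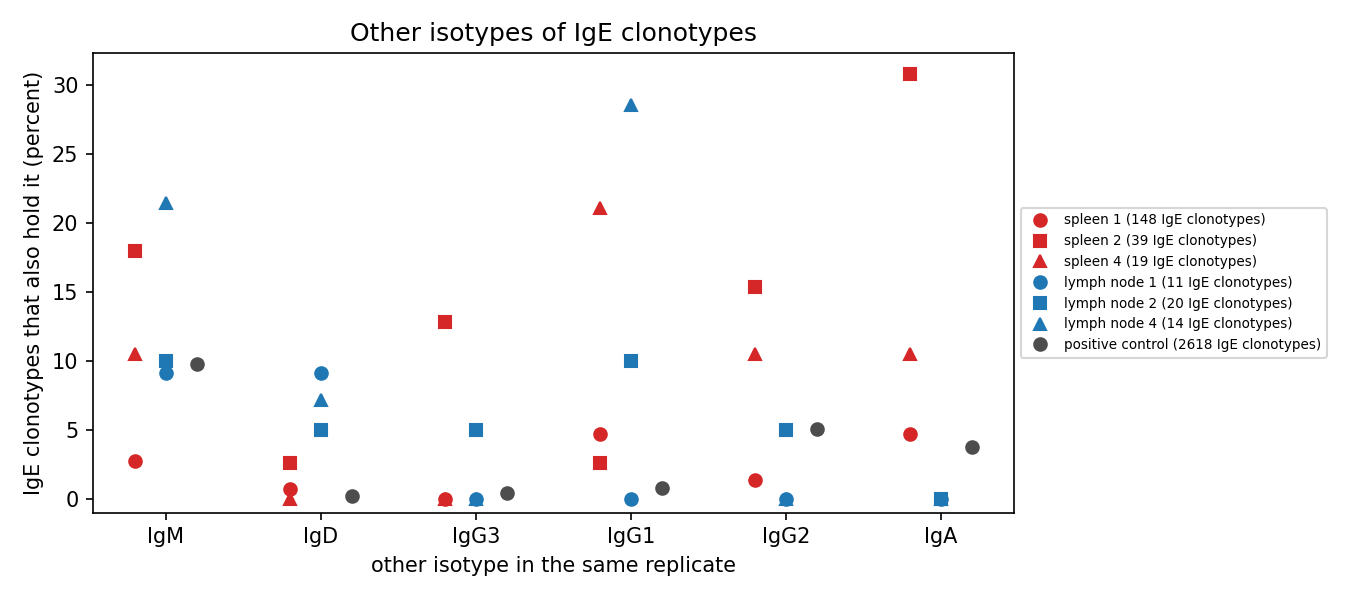
Percent of IgE clonotypes (y axis) that also held each other isotype in the same replicate (x axis), for the replicates with at least 5 IgE clonotypes. Red points are spleens, blue points lymph nodes and the dark grey circle the positive control, with the symbol marking the replicate. IgG1 runs between 0 and 28.6% over the tissue replicates, and IgA is at 0 in all lymph nodes shown.

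IgE clonotypes used 60 V genes, and no V gene dominated. Spleen replicate 1 alone gave 148 of the 255 tissue clonotypes, so these counts largely describe that replicate. The 10 most used genes held 112 of 255 clonotypes. IGHV1-26 (chr12:114788372-114788665, GRCm38) led with 19 clonotypes in 5 replicates, 7.45% of tissue IgE clonotypes against a mean of 8.57% of IgM clonotypes. IGHV1-18 (chr12:114682632-114682925) and IGHV5-4 (chr12:113597448-113597741) had 13 each, 5.10% of IgE against 3.20 and 1.83% of IgM.

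IGHV5-9 (chr12:113661771-113662228) had 12 clonotypes, 4.71% of IgE against 0.632% of IgM, and all of them lay in spleen replicate 1, in only 2 junction groups. The 13 clonotypes of IGHV5-4 came from 8 junction groups and the 19 of IGHV1-26 from 15. The remaining genes of the 10 were IGHV1-55 and IGHV1-82 with 10 clonotypes each, IGHV1-72, IGHV1-75 and IGHV8-8 with 9 each, and IGHV1-19 with 8.

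By family, IGHV1 made up 60.3% of IgE clonotypes in spleen and 47.8% in lymph node, beside 59.8 and 62.4% of IgM. IGHV5 made up 18.2 and 17.4% of IgE, beside 9.08 and 8.02% of IgM. IGHV14 made up 4.31 and 17.4% of IgE, beside 4.10 and 2.18% of IgM, and in lymph node this was 8 clonotypes. These family shares pool the replicates of a tissue. Spleen replicate 1 gave 148 of the 209 IgE clonotypes of spleen but 15939 of its 753054 IgM clonotypes. The 38 IGHV5 clonotypes of spleen IgE include the 12 of IGHV5-9, which formed only 2 junction groups of that replicate. The V use was not tested.

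J gene use of tissue IgE was uneven between replicates. In spleen, IGHJ1 made up 31.3 ± 4.81% of IgE and 20.4 ± 0.247% of IgM clonotypes (SD, n = 3 replicates with at least 5 IgE clonotypes), with every IgE value above every IgM value. IGHJ2 made up 25.8 ± 10.2% of IgE and 35.8 ± 0.356% of IgM, IGHJ3 25.9 ± 14.2% and 11.6 ± 1.67%, and IGHJ4 16.9 ± 14.6% and 32.2 ± 2.0%. In lymph node, IGHJ4 made up 16.8 ± 9.01% of IgE and 38.1 ± 2.05% of IgM clonotypes, again without overlap.

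IGHJ3 ranged between 0 and 57.1% of IgE clonotypes in the lymph nodes, against 7.16 to 8.23% of IgM, and the 2 high values are the replicates whose clonotypes of the first list use IGHJ3. IGHJ1 was at 31.0 ± 22.4% of lymph node IgE and 19.7 ± 0.449% of IgM. IGHJ2 was at 16.5 ± 10.1 and 34.4 ± 1.17%. In the positive control IGHJ1 to IGHJ4 made up 12.7, 33.1, 23.7 and 30.5% of IgE clonotypes, close to 12.6, 30.4, 22.1 and 34.9% of IgM. These are descriptions with no test, and the control values include sequences whose constant gene differed between its libraries. The shares count clonotypes, so members of 1 junction group count separately. The IGHJ1 group of 13 clonotypes lies among the 47 IGHJ1 clonotypes of IgE in spleen replicate 1. The 20 and 14 IgE clonotypes of lymph node replicates 2 and 4 formed 12 and 6 groups.

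**Figure D5:**
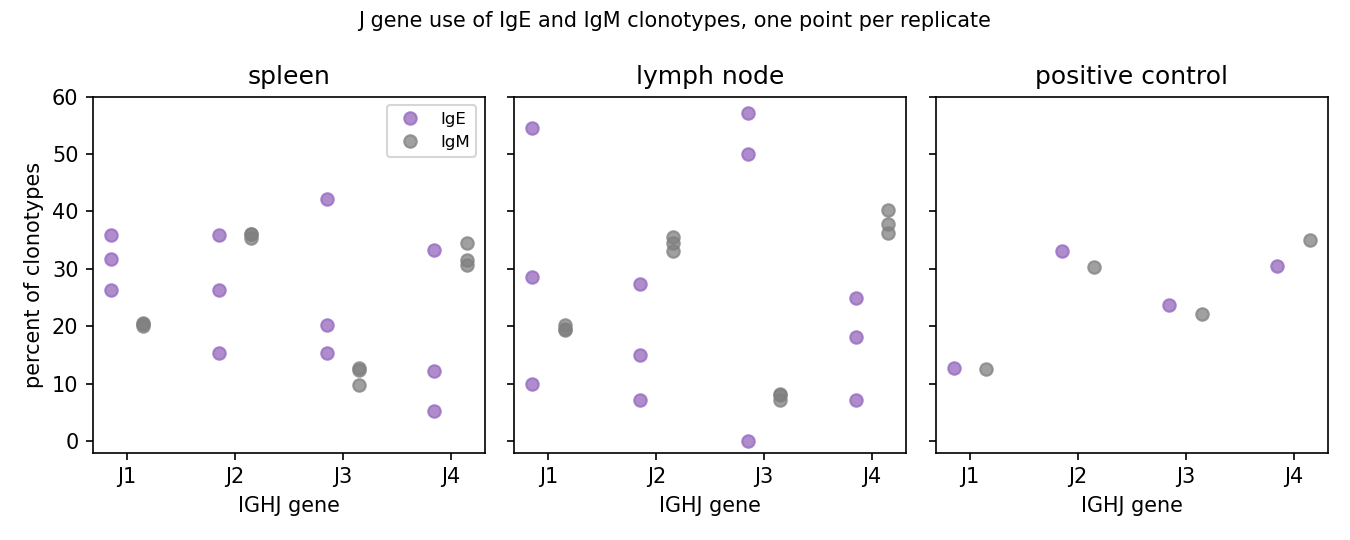
Percent of clonotypes (y axis) that use each of the 4 IGHJ genes (x axis) for IgE (purple) and IgM (grey) in spleen, lymph node and positive control, with 1 point for each replicate with at least 5 IgE clonotypes. IgE points spread widely in the tissues, and at IGHJ4 all but that of spleen replicate 2 lie below every IgM point of their tissue, while in the positive control the 2 isotypes lie within 5 percentage points of each other.

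None of the 255 tissue IgE clonotypes occurred as IgE in another replicate, beside 1.01% of IgG1, 2.24% of IgA and 3.41% of IgM clonotypes found with their own isotype in another replicate. With any isotype, 12 of 255 (4.71%) occurred in another replicate, beside 4.03% of IgG1, 3.92% of IgA and 3.94% of IgM clonotypes, so that the IgE share lay within the range of the other isotypes. Of the 209 spleen IgE clonotypes, 7 were found in a lymph node, 6 of them in the lymph node with the same replicate number, 2 in another spleen and 1 in the positive control. Of the 46 lymph node IgE clonotypes, 1 was found in a spleen, with the same number, 3 in another lymph node and 1 in the positive control. Neither tissue's IgE clonotypes were found in skin with any isotype, where a replicate held only 275 to 350 clonotypes. Over all isotypes, each of the 4 spleens held a larger share of the clonotypes of the lymph node with its own number than of any other lymph node. For numbers 1 to 4 these shares were 0.705, 4.78, 2.88 and 3.61%, against at most 0.0900, 1.69, 0.765 and 0.876% of another lymph node. Lymph node replicate 1 was the exception in the other direction. It had 0.705% of its clonotypes in spleen replicate 1, against 1.69, 0.712 and 0.876% in spleen replicates 2, 3 and 4. These shares were not adjusted for the number of spleen clonotypes, 25645 in replicate 1 and 223824 to 438995 in the others. Counted from the spleen side, lymph node replicate 1 held 194 of the 25645 clonotypes of spleen replicate 1. It held 466 of 438995, 196 of 223824 and 241 of 304664 in spleen replicates 2, 3 and 4. By that count the spleen of its own number stood highest.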

How the data were processed

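Heavy-chain repertoires were measured in 26 libraries. Per the labels' protocols, a commercial service reverse-transcribed RNA with constant-gene primers carrying a 10-nucleotide molecular identifier (UMI), extended it with V gene primers and sequenced framework 2 into the constant region. The authors deposited 1 table per library, with a whole-number count per sequence. Whether a count is of UMIs or of reads is not stated, so copies may carry amplification differences. The deposited V mismatches and aligned V length are other measurements, given per sequence. The build was mm10, per the submitters' processing notes. No source used here names the program that aligned reads and assigned genes. No count normalization was applied.

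Technical tables were summed per biological replicate, with groups from the titles. Skin is given as limits of 3 copies over the total. IgE V genes named are the 10 with most clonotypes in spleen and lymph node, and clonotypes are the largest of each replicate and the 3 largest of each tissue found with IgE in both tables. Exact permutation and sign-flip tests, with Benjamini-Hochberg adjustment within each family, were checked on simulated data, with a threshold of 0.05. Alternatives left out replicates, tables, single-copy clonotypes or sequences with differing constant genes, changed weights or the clonotype definition, or used the replicate number as a block. Python 3.11.15, numpy 2.4.6, pandas 2.3.3, scipy 1.17.1 and matplotlib 3.10.9 were used. Constant and V gene positions are from RefSeq, GRCm38. The members, lists and tests were chosen with earlier results of these data known.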

Additional observations from a re-analysis of the deposited data

Results flagged for a closer look

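In spleen replicate 1, IgE made up 0.746% of copies and 0.577% of clonotypes, and the gap to the next spleen took up nearly the whole range of the 4 spleens in both measures. That replicate also had IgG1 at 3.41% of copies, against 0.214 to 0.230% in the other spleens, and the fewest copies of the 4, 162168. The IgE V mutation of spleen replicate 3, 0.466%, lay as far below the other 3 spleens, and rests on 3 single-copy clonotypes. The rule for these flags is set so that chance sets such a sample apart in about 1 of 20 groups of this size. That rate was not checked on these data.

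The positive control, which entered no test, held IgE at 0.438% of copies, above the limit that 0 copies allows. Of its IgE clonotypes 407 of 2618 (15.5%) had a V gene name containing the letter S, against 3 of 209 in spleen and 0 of 46 in lymph node. This held for the control's repertoire at large: 12.1% of its IgM clonotypes had such a name, against 0.207% in spleen and 0.253% in lymph node.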

How the results depend on the processing

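The difference in IgE share of copies between spleen and lymph node was reversed without spleen replicate 1 (-0.111) and on the log10 scale (-0.368), and that in share of clonotypes without spleen replicate 1 (-0.0129). Leaving out each replicate gave ranges of -0.111 to 0.153, -0.0129 to 0.179 and, for V mutation, 0.266 to 0.836. None of these 3 differences passed the threshold after adjustment under any alternative run. With the replicate number as a block, the values were 0.0737, 0.130 and 0.539, with adjusted p = 1, 1 and 0.375 in exact sign-flip tests, where 4 differences cannot go below 0.125. The labels do not pair the numbers, and the V use deviations of spleen and lymph node with the same number correlated at 0.00504, -0.167, 0.147 and -0.0235 over 78 V genes. Clonotype sharing, in contrast, was highest for every spleen with the lymph node of its own number, a hint from the data that numbers may mark a shared source. Lymph node replicate 1, however, had the smallest share of its clonotypes in the spleen of its own number, without adjustment for depth. As a share of the spleen's clonotypes, the sharing was largest with that spleen (194 of 25645).

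V mutation of IgE kept its direction against IgM, IgG1 and IgA in all alternatives run. With spleen and lymph node of a number averaged, chosen after seeing the data, the differences were 0.804, -1.01 and -1.35 with adjusted p = 0.25 in exact tests of 3 values, which can give no less. With fewer than 6 replicates those calls cannot pass, since 5 allow no p below 0.0625 and 3 none below 0.25. The ranges over replicates left out were 0.734 to 0.890 against IgM, -1.09 to -0.876 against IgG1 and -1.45 to -1.29 against IgA. Against IgM, IgG1 and IgA the differences were 1.03, -1.13 and -1.47 in spleen alone, 0.581, -0.893 and -1.22 in lymph node alone, 0.278, -1.59 and -1.65 with copies as weights, and 0.522, -1.25 and -1.54 with J gene and junction as clonotype, a setting chosen after seeing the data. The last 2 settings ended all 3 calls (exact sign-flip tests, adjusted p = 0.0625 to 0.417), and the cause was not tested. Without sequences whose constant gene differed between libraries, also chosen afterwards, the difference from IgG2 passed, at -0.298. This was the only 1 of 14 alternatives in which it passed, and with copies as weights the difference was -0.0268.

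The IgG1-holding comparisons missed the threshold in the 4 alternatives with 6 replicates. Against IgM, IgG2 and IgA the differences were 16.5, 13.4 and 16.04 with J gene and junction as clonotype (adjusted p = 0.0938, 0.125 and 0.0938, exact tests) and 8.85, 7.25 and 8.63 scored within technical libraries (adjusted p = 0.0938, 0.156 and 0.0938, exact tests). Leaving out each replicate gave 7.62 to 13.3, 5.57 to 11.3 and 7.32 to 13.0, the lowest without lymph node replicate 4, at sizes that cannot pass. The limit for skin was 0.0128% over all replicates together, with copies taken as independent. Depth limits skin most, and spleen and lymph node replicates 3 rest on 3 and 2 IgE copies.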
